A study of Mus musculus with 9 samples.

Results

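Messages of 10 genes that encode parts of the sperm head were followed through the last divisions of spermatogonia and the start of meiosis in the mouse testis. The 10 genes were taken by name from the 24505 genes of the count table, a list drawn up with earlier results of these data known. Acr, Acrbp, Acrv1, Spaca1, Zpbp and Zpbp2 encode contents or membrane proteins of the acrosome, Spata16 and Dpy19l2 encode proteins that build or anchor it, and Rimbp3 and Hook1 encode proteins of the manchette. RNA was sequenced from EGFP+ germ cells sorted from testes of Uchl1-eGfp mice, outcrossed to CD-1, whose EGFP is under the promoter of Uchl1, bright in spermatogonia and dim in preleptotene (PL) spermatocytes. All mice had first received WIN18,446, an inhibitor of retinoic acid (RA) synthesis, at 100 µg/g body weight from postnatal day (P)1, and then, at P11, RA injected once as 10 µl of a 10 µg/µl solution. There were 3 libraries each of intermediate and type B spermatogonia (In/B) from P17, of RA-sufficient PL spermatocytes from P19, with WIN18,446 stopped, and of RA-deficient PL spermatocytes from P19, with WIN18,446 continued after the RA injection. The labels do not say which of these regimens the In/B mice had after the injection, while the authors call the In/B spermatogonia of P17 RA-sufficient. RA-deficient PL would then differ from In/B in WIN18,446 as well as in stage and day. Per the labels, each experiment used testes from adult males or from pups of a given litter. The authors report independent cell preparations, possibly fewer than the libraries of a group. The labels do not say which preparation each library came from, so p-values measure the spread between these libraries, which may be technical.

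The acrosome is a secretory vesicle that forms over the nucleus of the round spermatid after meiosis and is released when sperm meet the coat of the egg, the zona pellucida. The manchette is a skirt of microtubules that surrounds the nucleus of the elongating spermatid and along which cargo travels while the head takes shape. Many genes of both structures are transcribed in spermatocytes, well before their proteins are put to use.

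Stretches before the start of 4 genes are shown. Of these, 3 hold the core of the cAMP response element (CRE), a site through which many haploid germ cell genes are switched on. Hook1, which lacks the core, was picked as a contrast because its message behaved differently in the libraries. Spata16 and Zpbp lack the core as well and are not shown, though both rose in RA-sufficient PL against In/B. A link between the core and the levels was not tested. They were read from RefSeq on GRCm38.p6, each running 5′ to 3′ in the direction of the gene over 150 bases up to the base before the start. The capitals mark TGACG or its complement CGTCA. The stretch of Spaca1 is chr4:34050066-34050215 on the minus strand, and those on the plus strand are chr6:125049777-125049926 for Acrbp, chr11:98550947-98551096 for Zpbp2 and chr4:95967229-95967378 for Hook1.
Spaca1: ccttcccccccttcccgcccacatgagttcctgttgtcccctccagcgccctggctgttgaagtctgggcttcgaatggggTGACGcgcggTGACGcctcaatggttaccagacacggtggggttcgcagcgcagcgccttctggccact
Acrbp: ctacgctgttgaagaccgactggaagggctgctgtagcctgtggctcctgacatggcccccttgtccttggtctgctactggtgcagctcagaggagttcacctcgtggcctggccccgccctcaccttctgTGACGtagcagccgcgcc
Zpbp2: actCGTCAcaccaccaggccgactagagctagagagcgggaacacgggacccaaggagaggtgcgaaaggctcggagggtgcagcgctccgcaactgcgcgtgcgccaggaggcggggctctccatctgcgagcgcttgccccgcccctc
Hook1: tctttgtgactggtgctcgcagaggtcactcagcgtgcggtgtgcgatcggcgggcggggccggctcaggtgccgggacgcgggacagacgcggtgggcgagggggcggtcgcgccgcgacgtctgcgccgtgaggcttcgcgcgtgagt

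Promoter windows of 250 bases before to 50 after the start were found for 8 of the 10 genes (9 windows, since Spaca1 has a pair of close starts), and for neither Acr nor Rimbp3. On either strand, TGACG was in the windows of 4 genes, Spaca1, Acrbp, Zpbp2 and Dpy19l2, against 20.8% of all 32851 promoters. Spaca1 held it at −69 to −65 and again at −59 to −55, Acrbp at −18 to −14, Zpbp2 at −147 to −143 on the opposite strand, and Dpy19l2 at 11 to 15 after the start. The full CRE, TGACGTCA, which contains the core, was in 0 of the 8 and in 1.79% of all promoters. The letters AGGTCA, bound by RA receptors, were in the windows of Hook1 and Spaca1 (16.3% of all), GTTGCC, part of the X-box of RFX factors, in that of Acrbp (12.5%), and CNGTT, bound by MYB factors, in those of 7 genes, Hook1 being the exception (80.3%). CNCCTCAG, a motif searched for STRA8, was in 0 of the 8 and in 7.94% of all. A match of letters is a description of the sequence and not of binding.

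On the build of the counts, mm9, the genes lie on 7 chromosomes and none is next to another. Rimbp3, at 17208228 to 17214064 on chromosome 16, has a single exon of 5837 bases, whereas Spata16 spans 345593 bases of chromosome 3 (26536542 to 26882134) with 2112 bases of exon. Acr lies at 89398757 to 89405015 on chromosome 15 and Acrbp at 124999707 to 125013285 on chromosome 6. Chromosome 9 holds Acrv1 (36500805 to 36506422) and Dpy19l2 (24361492 to 24500737), chromosome 4 Spaca1 (34111849 to 34137166) and Hook1 (95633931 to 95692104), and chromosome 11 the paralogs Zpbp (11179629 to 11362411) and Zpbp2 (98412411 to 98419979). All 10 are annotated as protein-coding, and exon lengths below are those of GENCODE M1. Some exon bases are shared with other genes, namely 932 of Acrbp with Ing4 on the same strand, 223 of Zpbp with 4930415F15Rik and 317 of Hook1 with 9530080O11Rik, both on the opposite strand. Whether strand was used in counting is not given in the sources used here, so the values of these 3 genes carry that uncertainty. Ing4 itself fell in RA-deficient against RA-sufficient PL, from 22.3 ± 3.07 to 10.4 ± 2.15 CPM (counts scaled to the size of each library; SD, n = 3; log2 fold change −1.10, adjusted p = 0.0275), the same direction as Acrbp. The part of shared reads in the value of Acrbp was not tested.

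Total counts ran from 12612959 to 27042274 per library, so that 3 counts were worth between 0.113 and 0.221 CPM. Between 14769 and 15327 genes were detected in RA-deficient libraries and between 16758 and 18434 in the others. RA-deficient replicates 1 and 2 were close to each other (Spearman correlation of log CPM across genes 0.982), whereas replicate 3 correlated at 0.935 and 0.934 with them. Kit, the receptor that marks differentiating spermatogonia, was at 561 and 521 CPM in RA-deficient replicates 1 and 2 and at 20.3 CPM in replicate 3, against 327 to 404 CPM in In/B and 20.2 to 41 CPM in RA-sufficient PL. Replicate 3 thus stood apart from the other RA-deficient libraries. Replicates 1 and 2 had correlations of 0.898 to 0.921 with In/B and of 0.821 to 0.88 with RA-sufficient PL. Replicate 3 had 0.839 to 0.868 with In/B and 0.881 to 0.93 with RA-sufficient PL. The sum of early meiotic markers, given below, was above In/B in all RA-deficient libraries. Fits without replicate 3 thus keep the RA-deficient libraries closer to In/B. For the genes named at the start, the comparison of the PL groups is given with and without replicate 3. The marker and related lists are given only with it. Stra8, a gene that RA induces, had 377, 365 and 81.5 CPM in RA-deficient PL and 444, 126 and 121 CPM in RA-sufficient PL, which overlap. Defining markers of Sertoli cells, the somatic cells that nurse the germ cells, were present in all groups despite the sort, and their sums are given with the comparison of the PL groups.

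The first comparison asked which of the messages had changed by the time RA-sufficient cells entered meiosis. A gene was called when its log2 fold change was beyond 1 in either direction and its adjusted p below 0.05 (quasi-likelihood test of edgeR, adjusted by Benjamini-Hochberg over all genes tested). RA-sufficient PL had higher levels than In/B for 8 of the 10 genes, out of 9 that passed the filter on low counts, and lower levels for 0; among all 15001 genes tested 26.1% were called higher and 19.3% lower, 45.4% in all. Hook1 was tested and not called, and Acrv1 did not pass the filter. The median log2 fold change was 2.71 over the 9 genes and 0.04 over all genes. All 3 RA-sufficient libraries lay above all 3 In/B libraries for the same 8 genes, as they did for 35.6% of all genes tested. Bulk libraries cannot tell fewer cells of a type from less RNA per cell. CPM values were scaled over all 9 libraries and fold changes within each pair of groups, so their ratios differ slightly.

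Among the genes for contents and membrane, Acr, which encodes the protease acrosin, went from 0.727, 2.27 and 2.88 CPM in In/B replicates 1 to 3 to 42, 21.5 and 16.9 CPM in RA-sufficient PL. Its level rose 14.1-fold (log2 fold change 3.82, standard error 0.53, adjusted p = 0.000321). That call rested on the pairwise fit, since with all 9 libraries in a single fit the adjusted p was 0.0504 (log2 fold change 3.78). Acrbp, whose protein binds the inactive form of acrosin, was already present in In/B at 9.17, 18.3 and 17.1 CPM and reached 120, 61.5 and 56.9 CPM. It rose by 2.47 ± 0.35 on the log2 scale (± standard error; adjusted p = 0.000378). Zpbp2, a zona pellucida binding protein gene, had 0.727, 2.57 and 3.67 CPM in In/B and 69.3, 29.8 and 29.8 CPM in RA-sufficient PL. Its log2 fold change, 4.26 ± 0.57 (adjusted p = 0.000268), and that of its paralog Zpbp, 1.72 ± 0.28 (adjusted p = 0.000808), were not tested against each other. Zpbp started from a higher level, 7.27, 9.26 and 9.95 CPM, and reached 39.5, 23 and 21.7 CPM.

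The remaining genes of this kind stayed low. Spaca1, an acrosomal membrane protein gene needed for the shape of the sperm head, had 0.783, 1.17 and 0.622 CPM in In/B and 2.65, 2.91 and 4.94 CPM in RA-sufficient PL. It rose by 2.07 ± 0.45 on the log2 scale (± standard error; adjusted p = 0.00362), and unlike the genes above it was highest in replicate 3. Acrv1, which encodes an acrosomal matrix protein long used as a round spermatid marker, had 0, 2 and 4 counts in In/B and 1, 30 and 16 counts in RA-sufficient PL. The groups overlapped. Without a filter on low counts its log2 fold change was 3.09 (adjusted p = 0.05, called), and it was also called by DESeq2 (3.15, adjusted p = 0.0402) and without In/B replicate 3 or RA-sufficient replicate 1. It was not called without In/B replicate 1 (2.62, adjusted p = 0.101), without In/B replicate 2 (2.91, adjusted p = 0.118) or in the single fit of 9 libraries (3.06, adjusted p = 0.206).

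Both genes for building and anchoring rose. Spata16, whose protein travels from the Golgi apparatus to the forming acrosome, had 0.447, 3.21 and 5.2 CPM in In/B and 94.1, 47 and 31.8 CPM in RA-sufficient PL. It rose by 4.34 ± 0.71 on the log2 scale (± standard error; adjusted p = 0.000783), and by 4.97 without In/B replicate 3 and 3.78 without RA-sufficient replicate 1, called in both fits. Dpy19l2, which encodes a protein of the inner nuclear membrane that holds the acrosome to the nucleus, went from 2.24, 3.18 and 5.2 CPM to 67.7, 38.3 and 19.9 CPM, a rise of 3.63 ± 0.50 on the same scale (adjusted p = 0.000297). In both genes the lowest RA-sufficient library was still above the highest In/B library, and In/B replicate 1 was the lowest of its group, as it was for 9 of the 10 genes.

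Of the manchette genes Rimbp3 was called and Hook1 was not, and the difference between them was not tested. Rimbp3, whose protein sits on the manchette and partners HOOK1, rose from 8.33, 15.5 and 11.4 CPM to 104, 66.7 and 50.5 CPM (log2 fold change 2.71, standard error 0.32, adjusted p = 0.000132). Hook1, which encodes a linker between microtubules and cargo, had 205, 261 and 247 CPM in In/B and 178, 226 and 205 CPM in RA-sufficient PL. These values overlap (log2 fold change −0.17, standard error 0.13, adjusted p = 0.278).

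**Figure D1:**
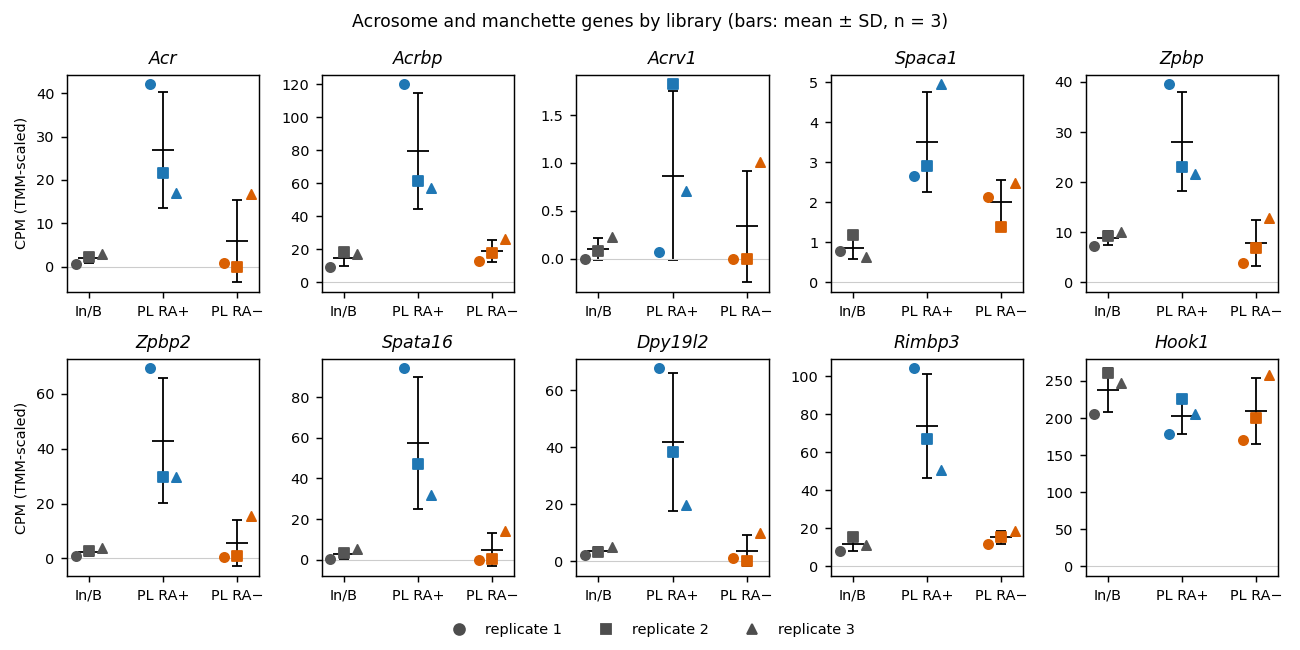
CPM of each of the 10 genes in each library (y axes, linear, a scale of its own per gene) by group (x axes; PL RA+ and PL RA− are RA-sufficient and RA-deficient PL), with symbols for replicates and bars for mean ± SD (n = 3). In 7 genes RA-sufficient replicate 1 is the highest of the 9 libraries, and in all 10 genes replicate 3 is the highest RA-deficient library.

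Compared per kilobase of exon, the order of the levels changed between groups. In In/B, Hook1 stood first at 28.6 ± 3.52 CPM per kilobase (SD, n = 3), followed by Acrbp at 4.53 ± 1.51, and the other 8 genes lay between 0.0918 and 2.08. Hook1 was separated from Acrbp by more than their SDs, whereas neighbours from Zpbp (2.08 ± 0.328) through Rimbp3, Spata16, Zpbp2 and Acr to Dpy19l2 (1.03 ± 0.44) were within theirs. In RA-sufficient PL, Spata16 (27.3 ± 15.4), Zpbp2 (25.5 ± 13.6), Hook1 (24.4 ± 2.87) and Acrbp (24.2 ± 10.7 CPM per kilobase) could not be ordered against their spread. Acr (17.8), Rimbp3 (12.6), Dpy19l2 (12.2), Zpbp (6.62), Spaca1 (2.19) and Acrv1 (0.791) followed. In RA-deficient PL, Hook1 was again first at 25.2 ± 5.37 and Acrbp second at 5.78 ± 2.08, with the rest between 0.306 and 3.92 CPM per kilobase.

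The second comparison asked whether the messages had also changed in cells that reached P19 under continued WIN18,446. Against In/B, 0 of the 9 genes tested were called in RA-deficient PL, while 23.2% of all 14877 genes tested were called, 11.4% higher and 11.8% lower. With edgeR 0 of the 9 had an unadjusted p below 0.05 (the lowest was 0.0848, for Spaca1), and DESeq2 called 0 as well. The log2 fold changes had standard errors of up to 1.70, which leave room for large changes. Their median was 0.55, against 0 for all genes. This comparison shares the In/B libraries with the first, so the values are set side by side only.

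Acrbp, Rimbp3 and Zpbp, the highest of the genes in In/B after Hook1, had RA-deficient levels that overlapped those of In/B. Acrbp had 12.8, 17.7 and 26.3 CPM in RA-deficient replicates 1 to 3 (log2 fold change against In/B 0.52, standard error 0.36, adjusted p = 0.307). Rimbp3 had 11.8, 15.3 and 18.5 CPM (0.55, standard error 0.32, adjusted p = 0.217). Zpbp had 3.88, 6.78 and 12.8 CPM (−0.01, standard error 0.46, adjusted p = 0.989). Hook1 also overlapped, at 171, 200 and 258 CPM (−0.01, standard error 0.17, adjusted p = 0.963).

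In a second set of genes the RA-deficient libraries were far apart. Acr had 0.84, 0 and 16.8 CPM, with replicate 3 at 40.1 times the mean of the other RA-deficient libraries. Zpbp2 had 0.4, 0.911 and 15.4 CPM (23.5 times), Spata16 0, 0.357 and 14.3 CPM (79.9 times) and Dpy19l2 1.24, 0 and 10.1 CPM (16.3 times). For these 4 genes replicates 1 and 2 lay at or below the lower end of In/B, except that Zpbp2 in replicate 2 (0.911 CPM) was above In/B replicate 1 and Acr in replicate 1 (0.84 CPM) was above In/B replicate 1 (0.727 CPM). Their log2 fold changes against In/B were 1.75 for Acr, 1.43 for Zpbp2, 0.88 for Spata16 and 0.25 for Dpy19l2 (adjusted p from 0.43 to 0.91). Without replicate 3 the signs turned, to −2.04, −1.64, −3.83 and −2.34, and none of the 4 was called (adjusted p from 0.0668 to 0.274).

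Spaca1 had 2.12, 1.39 and 2.49 CPM in RA-deficient PL, above every In/B library (as for 21% of all genes tested), and 1.38 ± 0.70 higher on the log2 scale than In/B (± standard error), without a call (adjusted p = 0.165). Acrv1 was at 0, 0 and 1.01 CPM, or 0, 0 and 23 counts, and did not pass the filter. At these depths a count of 0 allows up to 0.12 and 0.119 CPM in replicates 1 and 2, counting error only.

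The comparison of the PL groups asked which messages depended on RA synthesis after the injection. RA-deficient PL had lower levels than RA-sufficient PL for 3 of the 10 genes, Acrbp, Zpbp and Rimbp3, and higher levels for 0, where 11% of all 15352 genes tested were called lower and 4.47% higher, 15.5% in all. The log2 fold changes were −2.29 for Rimbp3 (standard error 0.34, adjusted p = 0.00454), −2.09 for Acrbp (standard error 0.40, adjusted p = 0.0116) and −1.87 for Zpbp (standard error 0.49, adjusted p = 0.0331). The median over the 10 genes was −2.16, against −0.09 over all genes. All RA-deficient libraries lay below all RA-sufficient libraries for 8 genes, all but Acrv1 and Hook1, as they did for 27.3% of all genes tested.

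The call of Zpbp was lost without any 1 of 5 libraries, RA-deficient replicate 1 or 2 or RA-sufficient replicate 1, 2 or 3 (adjusted p from 0.0649 to 0.112), while those of Acrbp and Rimbp3 held in each of these fits. Against a fold change of 2 only Rimbp3 was called. The 4 genes with scattered RA-deficient libraries were not called, with Spata16 at −3.60 (standard error 1.59, adjusted p = 0.145), Dpy19l2 at −3.51 (1.41, 0.114), Zpbp2 at −2.97 (1.24, 0.124) and Acr at −2.22 (1.51, 0.327). With the replicate number as a block these 4 were at −6.11, −5.20, −4.50 and −4.85, still without a call (adjusted p from 0.081 to 0.154). Spaca1 (−0.81, adjusted p = 0.313) and Acrv1 (−1.36, adjusted p = 0.633) were not called either. The level of Hook1 was 210 ± 44.7 CPM in RA-deficient and 203 ± 23.9 CPM in RA-sufficient PL (log2 fold change 0.04, standard error 0.17, adjusted p = 0.867).

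**Figure D2:**
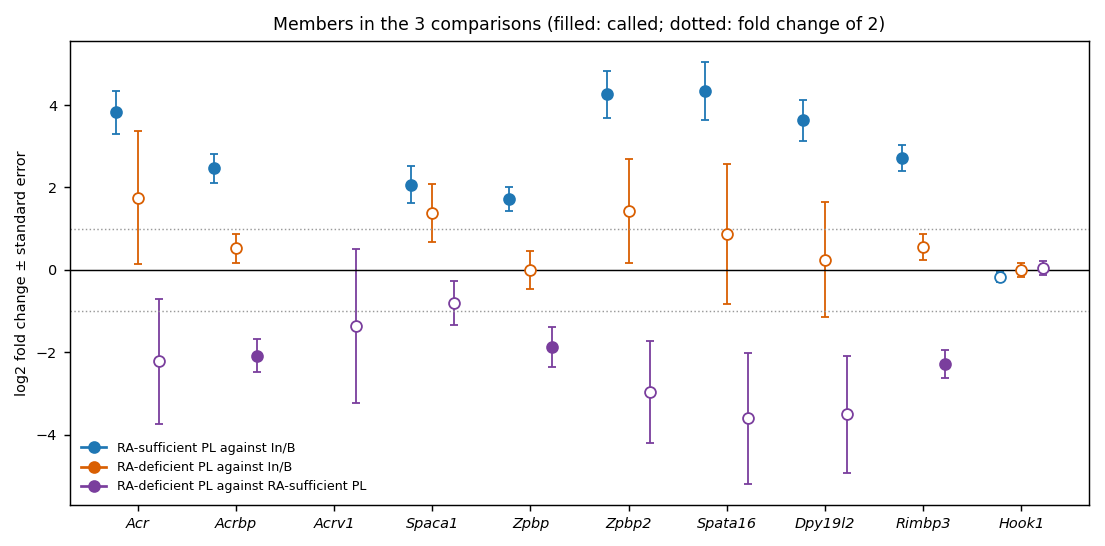
Log2 fold change ± standard error (y axis) of each gene (x axis) in the 3 comparisons, filled where the gene was called and open where it was tested and not called; dotted lines mark a fold change of 2. Blue points are filled for 8 genes, orange points for 0 and purple points for 3, and Acrv1 has a point for the PL groups only.

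Leaving out RA-deficient replicate 3, which keeps the RA-deficient libraries closer to In/B than to RA-sufficient PL, changed how many genes passed. It was the highest RA-deficient library for 10 of the 10 genes, and it was still below every RA-sufficient library for 8. The mean of RA-sufficient PL was 1.59 times replicate 3 for Acr (16.8 CPM against 16.9 CPM in the lowest RA-sufficient library), 2.78 times for Zpbp2, 4.04 times for Spata16 and 4.16 times for Dpy19l2. For Acrbp, Zpbp and Rimbp3 it was 3.02, 2.20 and 3.98 times.

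Without that library 8 of the 10 genes were called lower in RA-deficient PL, beside 3218 of all 15799 genes tested. With it 3 of the 10 were, beside 1696 of 15352. The log2 fold changes were −8.27 for Spata16 (adjusted p = 0.000589), −6.06 for Dpy19l2 (0.00416), −6.01 for Zpbp2 (0.000464) and −5.97 for Acr (0.00331), genes with at most 1.24 CPM in either remaining library. Those of Acrbp, Zpbp and Rimbp3 moved little, to −2.37, −2.39 and −2.43. Spata16, Dpy19l2, Zpbp2 and Acr passed the filter of this fit through RA-sufficient PL alone, so only a lower call was open to them. Acrv1 was also called (adjusted p = 0.038), with 0 counts in both remaining libraries and a mean in RA-sufficient PL at least 14.5-fold higher than 3 counts over that pair. It passed the filter through RA-sufficient PL alone, so only a lower call was open to it. The library left out had 1.01 CPM of Acrv1, above the RA-sufficient mean of 0.866 CPM. Spaca1 (−0.99, adjusted p = 0.2) and Hook1 (−0.12, adjusted p = 0.522) were not called.

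**Figure D3:**
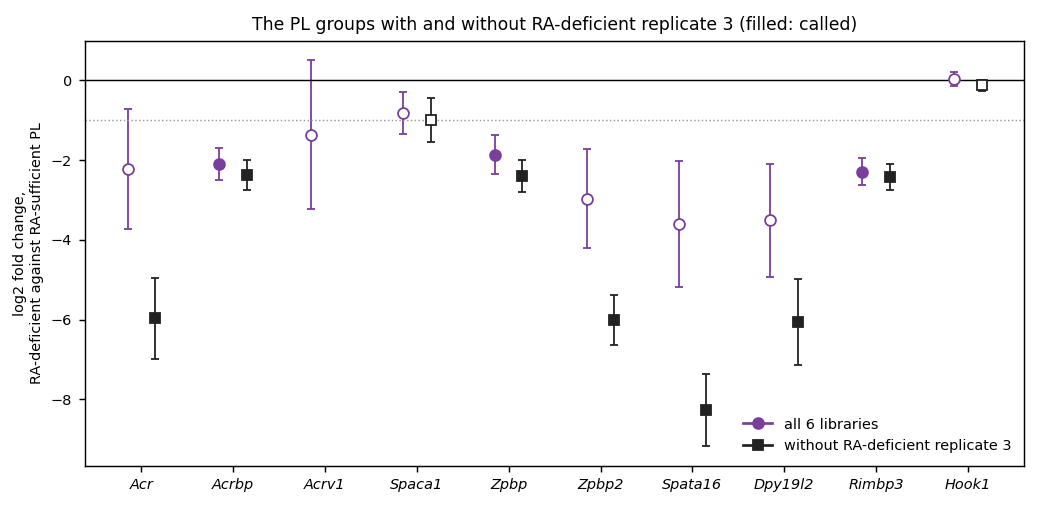
Log2 fold change ± standard error of RA-deficient against RA-sufficient PL (y axis) for each gene (x axis), from all 6 libraries (circles) and without RA-deficient replicate 3 (squares), filled where called; the dotted line marks a log2 fold change of −1. Called genes go from 3 to 8, of which Acrv1 has no square because both remaining libraries had 0 counts. Only a lower call was open to the added genes.

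Among markers of later and of other cells, the sums of the pachytene and Sertoli lists moved with the genes. Between the PL groups the peritubular and stromal markers had a median log2 fold change of −0.07 (1 of 6 called higher, 0 lower). Leydig cell markers were at −1.03 (1 of 5 called lower, 0 higher). Counts called in these and the later lists stand beside the shares of all genes tested. These were 26.1% higher and 19.3% lower in RA-sufficient PL against In/B. They were 11.4% higher and 11.8% lower in RA-deficient PL against In/B, and 4.47% higher and 11% lower between the PL groups. Summed over the 9 genes without Hook1, the level was 29.7, 55.5 and 56.2 CPM in In/B, 539, 293 and 233 CPM in RA-sufficient PL and 33.1, 42.4 and 118 CPM in RA-deficient PL. The sum of 7 pachytene markers, genes of a later stage of meiosis, had the same order of libraries within the PL groups, with 162 to 238 CPM in In/B, 1620, 660 and 611 CPM in RA-sufficient PL and 177, 184 and 467 CPM in RA-deficient PL. In the latter group Ldhc, the lactate dehydrogenase of the germ line, had 0.8, 1.74 and 89.8 CPM. Of the 7 markers 5 were called higher in RA-sufficient PL than in In/B and edgeR called 0 between the PL groups, where 4 had an unadjusted p below 0.05, all lower in RA-deficient PL, and DESeq2 called 0. Their part in the result was not tested.

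The sum of 6 Sertoli cell markers was 57.9 to 288 CPM in In/B, 2160 to 2890 CPM in RA-sufficient PL and 237, 250 and 412 CPM in RA-deficient PL, most of it from Clu. All 6 were called higher in RA-sufficient PL than in In/B and lower in RA-deficient than in RA-sufficient PL, and their part in the result was not tested. Of 9 spermatid markers, 2 were tested in RA-sufficient PL against In/B and both were called higher. Gapdhs, a glycolytic enzyme gene of the sperm tail, went from 5.42, 5.56 and 5.31 CPM to 11.3, 15 and 15.4 CPM (log2 fold change 1.41, adjusted p = 0.001). Odf1, a gene of the outer dense fibres of the tail, went from 0, 0.0378 and 0 CPM to 0.957, 1.76 and 1.19 CPM (adjusted p = 0.000408). It passed the filter through RA-sufficient PL alone, so only a higher call was open to it. In RA-deficient PL, Odf1 had 0, 0 and 2.71 CPM, Akap4, a tail scaffold gene, 0, 0 and 2.49 CPM, and Gapdhs 5.08, 8.4 and 11.2 CPM, each highest in replicate 3. Between the PL groups 4 of the 9 were tested and edgeR and DESeq2 called 0 (0 with an unadjusted p below 0.05). The genes that package the DNA of condensing spermatids, Prm1, Prm2, Tnp1 and Tnp2, were at or below 1.69 CPM in every library. In RA-deficient PL, Prm1 (0, 0.832 and 0.175 CPM) and Tnp2 (0.04, 0.911 and 0 CPM) were highest in replicate 2. Prm2 and Tnp1 were at 0 CPM there, and the remaining Hils1 (0, 0 and 0.787 CPM) and Tssk6 (0, 0 and 0.0437 CPM) were highest in replicate 3. The part of these markers in the result was not tested. The sum of 9 early meiotic markers was 1340 to 2250 CPM in In/B, 4980 to 7200 CPM in RA-sufficient PL and 6830 to 7940 CPM in RA-deficient PL, and 0 of the 9 were called between the PL groups by edgeR or DESeq2 (1 with an unadjusted p below 0.05, higher in RA-deficient PL). The sum of 7 spermatogonial markers was 3460 to 5150 CPM in In/B, 660 to 884 CPM in RA-sufficient PL and 3060, 3200 and 1270 CPM in RA-deficient PL, lowest in the replicate in which the acrosome genes were highest. Most of it came from Uchl1, whose promoter drives the EGFP used in the sort. Between the PL groups 5 of the 7 were called higher and 1 lower in RA-deficient PL (median log2 fold change 1.84, against −0.09 over all genes). Their part in the result was not tested. Against In/B, 5 were called lower and 1 higher in RA-sufficient PL. Ccnd2 rose there from 23.3, 18.3 and 16.5 CPM to 49.8, 79.3 and 60.3 CPM. In RA-deficient PL Sohlh2 had 203, 195 and 103 CPM, above its In/B values of 79.4 to 79.5 CPM.

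**Figure D4:**
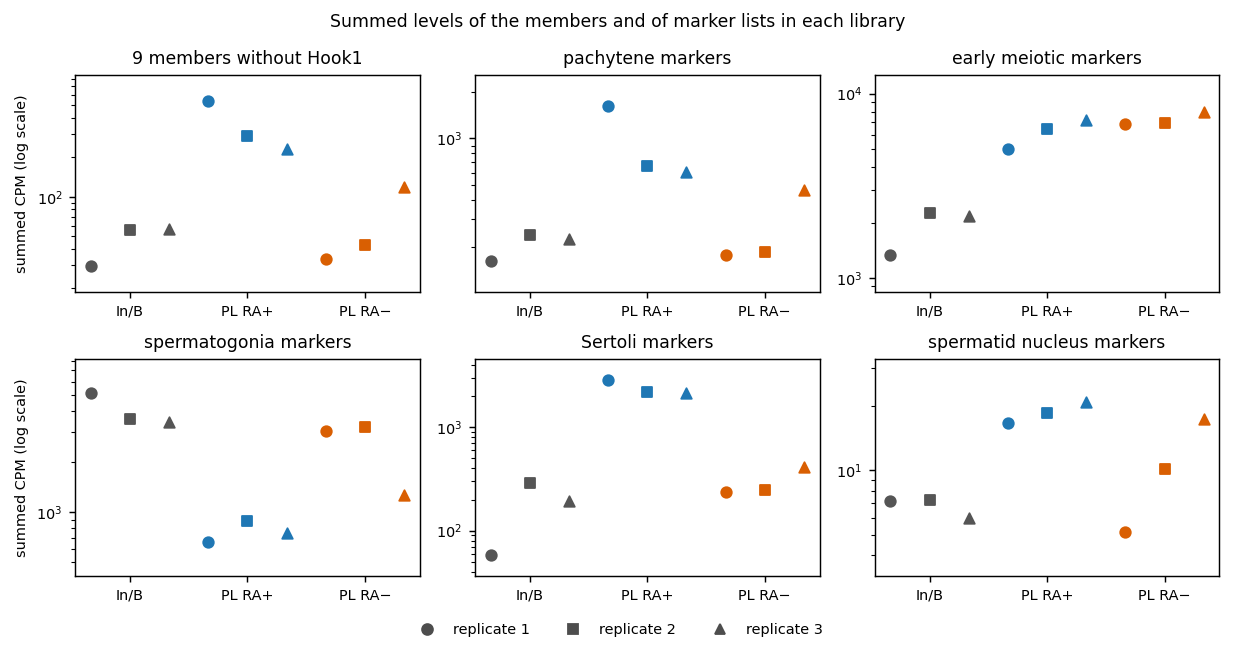
Summed CPM per library (y axes, log scale) of the 9 genes without Hook1 and of 5 marker lists, by group (x axes), with symbols for replicates. The sum of the 9 genes and that of the pachytene markers are both highest in RA-sufficient replicate 1 and, among RA-deficient libraries, in replicate 3.

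Other acrosome genes were read from a list of 21 for contents and membrane. In RA-sufficient PL 7 of 11 tested were higher than in In/B and 0 lower (median log2 fold change 3.68), and in RA-deficient PL edgeR called 0 of 9 in either direction (median 0.32; 0 with an unadjusted p below 0.05, and 1 called lower by DESeq2). Spesp1, an equatorial segment protein gene, rose from 3.19, 3.36 and 3.45 CPM to 57.8, 35.6 and 31.5 CPM in RA-sufficient PL (log2 fold change 3.69, adjusted p = 2.12e-05). Dkkl1, an acrosomal protein gene, rose from 5.54, 12.2 and 10.3 CPM to 183, 84.1 and 78.7 CPM (3.68, adjusted p = 0.000103). Between the PL groups 4 of 16 fell in RA-deficient PL and 0 rose (median −2.54), where 11% of all genes tested fell and 4.47% rose. Among them was Spesp1, at 3.76, 4.08 and 13.6 CPM (−2.57, adjusted p = 0.0194). The rest, Spaca7, Fam170b and Tmem190, had 0 CPM in every RA-deficient library. They passed the filter through RA-sufficient PL alone, so only a lower call was open to them, and their values enter the median. In the same way Fam170b could only be called higher against In/B. Fam170b had 0 counts in all RA-deficient and all In/B libraries and 1.03, 1.76 and 1.06 CPM in RA-sufficient PL, at least 31.3-fold higher than 3 counts over the RA-deficient group (adjusted p = 0.0185 between the PL groups). In the RA-deficient libraries, Spink2, a protease inhibitor gene, had 0.24, 0 and 25.8 CPM and Crisp2 had 0.28, 0.317 and 31.2 CPM, with the same replicate standing out; this pair was chosen after its values were seen.

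Genes that serve acrosome building through the Golgi apparatus and vesicle traffic were expressed in all groups. Of 9 tested, 2 rose in RA-sufficient PL against In/B (median 0.16), where 26.1% of all genes tested rose. Gba2, a glucosylceramidase gene, went from 24.4 ± 3.38 to 72.1 ± 13.0 CPM (log2 fold change 1.62, adjusted p = 0.000112). Golga3, a golgin gene, was at the threshold with 1.00 (adjusted p = 0.000294). In RA-deficient PL 3 rose against In/B (median 0.46), including Smap2 (1.16, adjusted p = 0.00121) and Vps54 (1.08, adjusted p = 0.000689), both of which act in vesicle traffic. Only Gba2 was called between the PL groups, lower in RA-deficient PL at 31.2, 34.6 and 23.6 CPM (−1.29, adjusted p = 0.00944). Of 7 genes of the perinuclear theca, the shell between acrosome and nucleus, 2 were tested and both rose in RA-sufficient PL, the actin-like genes Actl7b (4.61, adjusted p = 6.66e-05) and Actl9 (4.36, adjusted p = 0.000999). Both passed the filter through RA-sufficient PL alone, so only a higher call was open to them. In RA-deficient PL against In/B 1 gene of the list was tested and not called, and Actl7b had 0, 0 and 2.19 CPM. Actl7a, at 0.442, 0.606 and 1.41 CPM in RA-sufficient PL, had at most 3 counts in each RA-deficient library and was the only gene of 3 tested called lower there (adjusted p = 0.0328). It passed the filter through RA-sufficient PL alone, so only a lower call was open to it.

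Other manchette genes moved in both directions. Of 18 tested out of 19, 10 rose and 3 fell in RA-sufficient PL against In/B (median 1.24), and 7 rose and 2 fell in RA-deficient PL (median 1.01). Iqcg rose from 7.44, 6.24 and 8.93 CPM to 57.7, 50.6 and 56.4 CPM in RA-sufficient PL (log2 fold change 2.92, adjusted p = 1.52e-05). Clip1, a gene for a protein at growing microtubule ends, fell from 293, 284 and 263 CPM to 42.5, 45.5 and 40.5 CPM (−2.65, adjusted p = 1.03e-05). In RA-deficient PL the ubiquitin ligase gene Rnf19a rose against In/B (1.12, adjusted p = 0.00144). Between the PL groups 3 fell and 1 rose in RA-deficient PL (median −0.74), where 11% of all genes tested fell and 4.47% rose. Map7, a microtubule-binding protein gene, had 87, 67.2 and 66.6 CPM in RA-sufficient and 29.8, 20.9 and 31.1 CPM in RA-deficient PL (−1.44, adjusted p = 0.00597), and Spag16, an axoneme gene, had 29.8, 10 and 10.5 CPM in RA-sufficient and 3.76, 2.62 and 2.84 CPM in RA-deficient PL (−2.47, adjusted p = 0.0179). For Map7 and Spag16 the RA-deficient replicate 3 did not stand apart.

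Relatives of Hook1, Rimbp3 and Dpy19l2 were read as well. Of 7, 0 were called higher in RA-sufficient PL than in In/B by edgeR or DESeq2 (1 had an unadjusted p below 0.05 in that direction; median log2 fold change −0.55). Dpy19l1, which lies 53908 bases from Dpy19l2 on the same strand, fell from 70.3, 83.8 and 77.4 CPM to 31.1, 19.3 and 23.8 CPM (−1.59, adjusted p = 0.000159), and to 36.7, 35.2 and 11.3 CPM in RA-deficient PL (−1.31, adjusted p = 0.0339). Dpy19l3 was higher in RA-deficient than in RA-sufficient PL (1.04, adjusted p = 0.0436) and Dpy19l4 was not called, with −0.89 and −0.78 for RA-sufficient and RA-deficient PL against In/B and −0.01 between the PL groups. Against In/B the log2 fold changes of Hook3 were −0.55 in RA-sufficient and −0.16 in RA-deficient PL and those of Hook2 were 0.24 and 0.11, without a call. Tspoap1, a relative of Rimbp3, was called higher in RA-deficient PL than in In/B (1.79, adjusted p = 0.0231), with 3.13, 2.87 and 4.47 CPM in In/B and 14.8, 4.87 and 12.8 CPM in RA-deficient PL. Rimbp2 stayed between 1.12 and 6.73 CPM in the 9 libraries and was not called.

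Across the 9 libraries, 7 of the genes, Acr, Acrbp, Zpbp, Zpbp2, Spata16, Dpy19l2 and Rimbp3, had Pearson correlations of log2(CPM + 1) between 0.86 and 0.99 in their 21 pairs. Pairs with Spaca1 or Acrv1 had 0.48 to 0.75, and Hook1 with the other 9 had −0.28 to 0.40. The genes whose pattern was most like the mean of the 10 were Tekt3, a tektin gene of the sperm tail, at 0.994, and Pom121l2 and Pabpc2, both at 0.992, among 14001 candidates with a mean of at least 1 CPM. The 9 points share groups and depths, so these values describe the libraries.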

How the data were processed

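mRNA was measured in 9 libraries of sorted mouse germ cells, with n counting libraries. The authors made stranded poly(A) libraries, used cutadapt 1.9 to trim the single-end reads, STAR 2.5.2b to map them to mm9 and featureCounts to count them per gene, and deposited raw counts, without normalization, in a single table. The annotation used in counting is not given in the sources used here. All 9 columns were matched to samples by name and 0 were left unused.

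Counts were tested with edgeR 4.0.16 in R 4.3.3 (TMM scaling, filterByExpr, quasi-likelihood test, Benjamini-Hochberg adjustment over all genes tested) in pairs of groups, in place of the DESeq2 of the study. Calls needed a log2 fold change beyond 1 in either direction and adjusted p below 0.05. CPM used TMM factors over all 9 libraries. Where every library of a group had at most 3 counts, no fold change is given. Depth ranged from 12612959 to 27042274 counts, and floors of 3 counts cover counting error only. Coordinates and exon lengths came from GENCODE M1. Alternatives were RLE or library-size scaling, no filter or a mean of at least 50 counts, a single fit of 9 libraries, a test against a fold change of 2, a replicate block, adjusted p alone, DESeq2 1.42.0 and each library left out. Scripts were tested on simulated data. The genes and lists were chosen with earlier results of these data known. All 10 genes and all their relatives are named, the 2 called genes with the lowest p per other list and comparison, and the 3 genes with the most similar pattern. A single gene that this rule names is not reported here. Plots were made in Python 3.11.15 (matplotlib 3.10.9).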

Additional observations from a re-analysis of the deposited data

How the results depend on the processing

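Over the 15 alternatives of each comparison, single genes kept their direction and side of the threshold in 384 values, lost a call in 9, gained one in 5 and changed sign in 19. The 8 genes called higher in RA-sufficient PL against In/B kept the call in each alternative that tested them, except Acr in the single fit of 9 libraries. All reversals concerned values that were not called. In RA-deficient PL against In/B, Dpy19l2 was at −0.07 with library size only, Zpbp at 0.02 and Hook1 at 0.01 with a mean of at least 50 counts, and with the replicate block Acr was at −0.15, Spata16 at −1.60 and Dpy19l2 at −1.28. The other reversals there came from leaving out a library. Between the PL groups Hook1 was at −0.14 with library size only, −0.12 without RA-deficient replicate 3 and −0.02 without RA-sufficient replicate 1.

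Against a fold change of 2, 1755 genes were lower in RA-sufficient PL than in In/B, 766 were higher and 441 lower in RA-deficient PL than in In/B, and 95 were higher and 646 lower in RA-deficient than in RA-sufficient PL, with 1 of the 10 genes lower (Acrbp adjusted p = 0.0767, Zpbp 0.214). With adjusted p alone the counts were 4679 lower, 2734 higher and 2725 lower, and 1694 higher. Fewer or more genes pass by the construction of these thresholds. With library size only, 1123 genes were higher and 2762 lower in RA-deficient PL than in In/B, 28.9% of calls higher in place of 49.1%, with the median of all genes at −0.31, and 426 were higher and 2003 lower between the PL groups, 17.5% in place of 28.8%, with the median at −0.27; the cause was not tested. DESeq2 called the same 3 of the 10 genes lower between the PL groups.

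Over the fits without 1 library, log2 fold changes of RA-deficient PL against In/B ran from −2.04 to 2.29 for Acr, −0.55 to 0.28 for Zpbp, −1.64 to 1.93 for Zpbp2, −3.83 to 1.59 for Spata16, −2.34 to 0.80 for Dpy19l2 and −0.19 to 0.09 for Hook1, and between the PL groups from −0.12 to 0.19 for Hook1. With 1 library left out, 8 to 9 of the 10 genes were higher in RA-sufficient PL than in In/B (all genes 3744 to 3964 higher, 2752 to 2955 lower), 0 were called in RA-deficient PL against In/B (1381 to 1770 higher, 1253 to 2225 lower), and 2 to 8 were lower between the PL groups (313 to 1266 higher, 840 to 3218 lower), where the high end of each range came without RA-deficient replicate 3. Deviations of same-numbered libraries from their group means correlated at −0.27, −0.23 and −0.21 between In/B and RA-sufficient PL, 0.12, −0.08 and 0.13 between In/B and RA-deficient PL, and −0.07, 0.02 and −0.08 between the PL groups. In each group 1 library lay apart, with deviations that correlated at −0.75 to −0.83 with those of the others. The values above follow that library, so they cannot show whether same-numbered libraries share a preparation. With the replicate block 8, 0 and 2 of the 10 genes were called in the 3 comparisons, Zpbp being lost between the PL groups (−1.94, adjusted p = 0.0657) and Acrv1 moving from −1.36 to −2.98 without a call, and the counts of all genes were 3646 higher and 2727 lower, 1549 and 1659, and 529 and 1236. At this depth genes under about 1 CPM, Acrv1 above all, rest on a few counts.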
